A study of Mus musculus with 7 samples.

Results

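The genes described here code for 10 proteins of mouse milk: the caseins Csn3, Csn1s1, Csn2, Csn1s2a and Csn1s2b, the whey proteins Lalba, Wap and Glycam1, and the milk fat globule proteins Btn1a1 and Mfge8. They were chosen by symbol, and each has a single entry among the 38579 gene entries of the deposited table. RNA came from freshly sorted fetal mammary cells of CD1 mice at E17.5, a day of gestation shortly before birth, in 7 libraries. Sorting for a Sox10-Venus reporter and EpCAM gave 2 libraries of a fraction labelled fetal mammary stem cells (Sox10+EpCAM+ fMaSC), and 1 library of EpCAM-negative stroma that is also Sox10-negative by its title. Sorting for CD24 and CD49f gave 2 libraries of lineage-negative CD24+CD49f+ fMaSC and 2 of lineage-negative CD24low stroma. Column names mark the libraries of the Sox10/EpCAM sort as lineage-negative too. The labels name the strain, day and sort markers, and call the libraries biological replicates. They do not tie libraries to embryos or litters, so that p-values measure the spread between these libraries. A sorted fraction is enriched for a cell type and can hold others, and fewer cells of a type cannot be told apart from less RNA per cell in such samples.

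Caseins are secreted phosphoproteins that carry calcium and phosphate in milk. Csn1s1, Csn2, Csn1s2a and Csn1s2b code for calcium-sensitive caseins, and Csn3 codes for kappa-casein, which coats and stabilises the casein micelle. Lalba codes for alpha-lactalbumin, the subunit that turns a Golgi galactosyltransferase (B4galt1) into lactose synthase, and Wap codes for whey acidic protein. In the adult gland, these genes are known for their induction in alveolar luminal cells during pregnancy and lactation, under prolactin acting through the prolactin receptor, Jak2 and Stat5, together with glucocorticoid and factors such as Elf5.

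Transcription factors of the STAT family bind palindromes with the core TTCNNNGAA, and the promoters of members on either side of detection are shown to compare that core. RefSeq promoters (assembly GRCm38.p6, 250 bases before to 50 after each gene start) were at hand for 7 of the 10 genes. They are given 5′ to 3′ on the gene's strand, with the core in capitals. They belong to Csn1s1 (chr5:87665958-87666257, plus strand), Csn2 (chr5:87699376-87699675, minus strand), Lalba (chr15:98482634-98482933, minus strand) and Wap (chr11:6638600-6638899, minus strand).
Csn1s1: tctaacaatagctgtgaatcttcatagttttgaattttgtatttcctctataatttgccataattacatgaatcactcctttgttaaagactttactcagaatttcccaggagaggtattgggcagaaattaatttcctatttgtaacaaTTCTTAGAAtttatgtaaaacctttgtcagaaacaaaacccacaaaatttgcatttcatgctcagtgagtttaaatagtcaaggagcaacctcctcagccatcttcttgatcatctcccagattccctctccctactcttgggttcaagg
Csn2: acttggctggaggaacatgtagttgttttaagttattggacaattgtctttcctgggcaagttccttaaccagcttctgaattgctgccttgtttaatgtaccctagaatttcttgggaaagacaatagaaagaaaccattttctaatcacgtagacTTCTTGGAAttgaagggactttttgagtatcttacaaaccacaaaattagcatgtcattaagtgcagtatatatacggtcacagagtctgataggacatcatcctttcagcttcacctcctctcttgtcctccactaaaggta
Lalba: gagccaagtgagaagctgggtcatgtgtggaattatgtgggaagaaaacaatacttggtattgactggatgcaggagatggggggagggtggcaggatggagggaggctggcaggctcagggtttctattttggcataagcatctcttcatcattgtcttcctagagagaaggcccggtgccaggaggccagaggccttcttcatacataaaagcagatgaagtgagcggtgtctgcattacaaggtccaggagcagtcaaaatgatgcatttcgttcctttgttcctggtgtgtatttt
Wap: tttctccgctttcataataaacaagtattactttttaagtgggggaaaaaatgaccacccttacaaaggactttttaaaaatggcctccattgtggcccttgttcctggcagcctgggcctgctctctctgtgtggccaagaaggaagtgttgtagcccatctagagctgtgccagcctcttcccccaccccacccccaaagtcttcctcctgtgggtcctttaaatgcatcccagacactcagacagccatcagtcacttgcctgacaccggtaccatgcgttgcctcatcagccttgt

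The core lay at bases -100 to -92 from the gene start in Csn1s1 and at -93 to -85 in Csn2. It also occurred at -145 to -137 in Glycam1 and, downstream of the RefSeq start, at 21 to 29 in Csn1s2a. The Csn1s2a window (chr5:87774200-87774499, plus strand) ends before the deposited gene entry begins (87774567). Relative to that entry, the Csn1s2a core therefore lies upstream of the start. The windows of Lalba, Wap and Mfge8 did not hold these letters, and promoters of Csn3, Btn1a1 and Csn1s2b were not examined. Of all 32851 promoters of this length, 8.30% held the core, which reads the same on both strands. Presence of the core did not sort the genes by level, since Csn1s2a and Glycam1 held it at levels below 1 FPKM and Lalba lacked it at up to 34.2 FPKM (FPKM is a count of fragments scaled by transcript length and by the mapped fragments of the library).

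A gene is called on in a fraction where every library of it had 1 FPKM or more. In Sox10+EpCAM+ fMaSC, 5 of the 10 genes were on: Csn3, Csn1s1, Csn2, Lalba and Mfge8. In CD24+CD49f+ fMaSC, 4 were on, all of these except Csn2. In EpCAM-negative stroma, Csn3, Csn2 and Mfge8 passed the threshold, Csn3 and Csn2 by less than 0.5 FPKM, and in CD24low stroma Mfge8 alone did. Csn1s2a, Csn1s2b, Wap and Glycam1 stayed below 1 FPKM in every library. Whether a milk gene was on at E17.5 thus differed from gene to gene within the same fraction, as the plot of milk genes per library shows. A gene that was not on could still be detected, as Csn2 was in CD24+CD49f+ fMaSC.

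**Figure D1:**
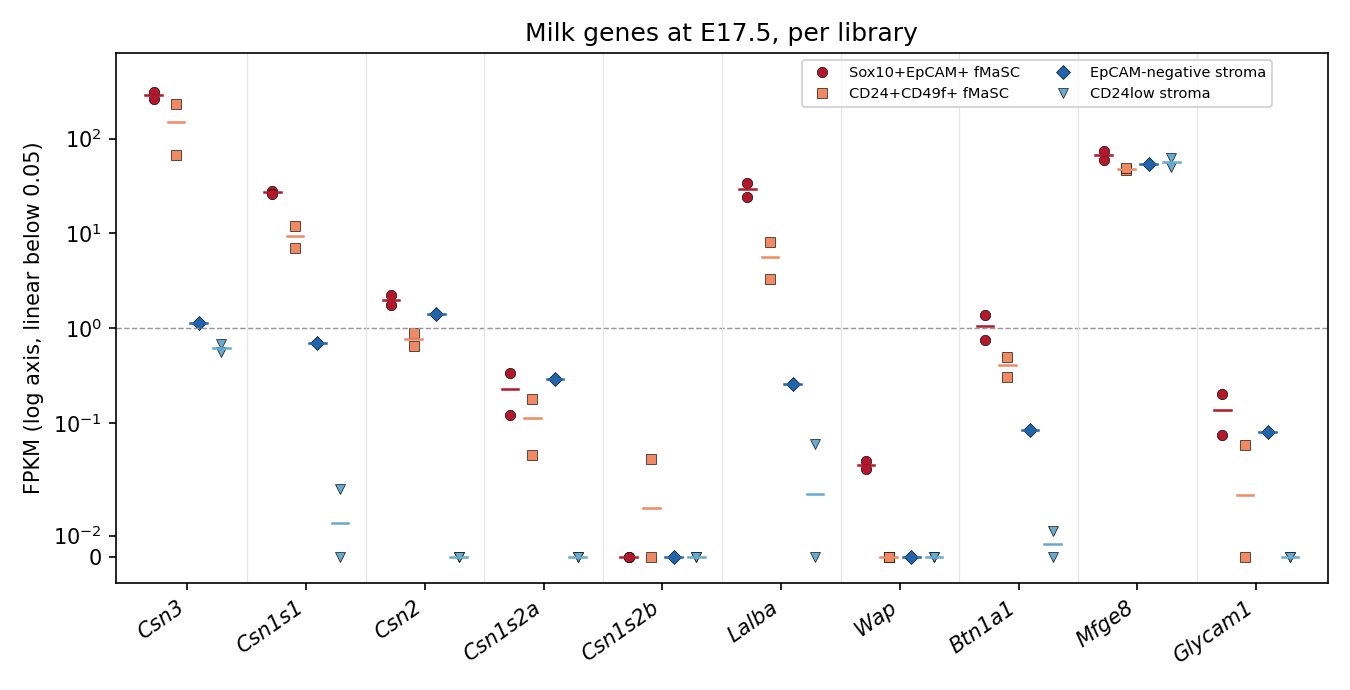
FPKM of the 10 milk genes on a log axis that is linear below 0.05, with 1 point per library, short lines for group means and a dashed line at 1 FPKM. Csn3, Csn1s1 and Lalba are high in the fMaSC libraries and near or below 1 FPKM in stroma, Mfge8 is between 46.4 and 73.7 FPKM everywhere, and the other genes lie below 3 FPKM.

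Csn3, the kappa-casein gene (chr5:87925579-87932665, GRCm38, plus strand), was the highest of the 10 in every fMaSC library. It had 311 and 263 FPKM in Sox10+EpCAM+ fMaSC, against 1.12 FPKM in EpCAM-negative stroma. In the CD24 sort it had 229 and 66.5 FPKM in CD24+CD49f+ fMaSC, against 0.558 and 0.684 FPKM in CD24low stroma. The fMaSC and stroma levels did not overlap in either sort, although the CD24+CD49f+ libraries lay far apart. The CD24+CD49f+ libraries with 229 and 66.5 FPKM also differed in summed FPKM (752737 and 424984) and in its mitochondrial share (17.9% and 9.94%). In the Sox10/EpCAM sort the sum was 738869 and 607325 in Sox10+EpCAM+ fMaSC, against 378952 in EpCAM-negative stroma, and the mitochondrial share 19.0% and 15.6%, against 6.23%. In CD24low stroma the sum was 387955 and 547649 and the mitochondrial share 10.9% and 17.7%, so that both overlapped between the fractions of the CD24 sort. Under TPM scaling, which divides each library by its sum, Csn3 was higher in fMaSC by 6.55 (log2) in the CD24 sort and 6.75 in the Sox10/EpCAM sort. Without that scaling the folds were 6.27 and 7.08. The part of the mitochondrial share in the milk gene levels was not tested. Csn3 ranked 325th and 329th from the highest gene in Sox10+EpCAM+ fMaSC, within the top 2.54% and 2.55% of genes at 1 FPKM or more. In CD24+CD49f+ fMaSC it ranked 423rd and 891st, within the top 3.10% and 6.57%. Csn3 made up 91.1% and 90.3% of the summed casein FPKM in Sox10+EpCAM+ fMaSC and 94.6% and 89.6% in CD24+CD49f+ fMaSC, so that kappa-casein led the caseins in each fMaSC library.

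Csn1s1, the alpha-s1 casein gene (chr5:87666224-87682573, plus strand), was the second casein by level in fMaSC. It had 27.8 and 26.3 FPKM in Sox10+EpCAM+ fMaSC, against 0.691 FPKM in EpCAM-negative stroma. It had 11.9 and 7.02 FPKM in CD24+CD49f+ fMaSC, against 0.0322 FPKM in a CD24low library and a listed 0 in the other. Every fMaSC library lay above every stroma library. Relative to Csn3 in the same library, Csn1s1 stood at 8.96% and 9.98% in Sox10+EpCAM+ fMaSC and at 5.21% and 10.5% in CD24+CD49f+ fMaSC.

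Csn2 (chr5:87692624-87699421, minus strand) codes for beta-casein, a major casein of mouse milk, and was near the threshold. It had 2.25 and 1.74 FPKM in Sox10+EpCAM+ fMaSC, against 1.40 FPKM in EpCAM-negative stroma. It had 0.897 and 0.643 FPKM in CD24+CD49f+ fMaSC and was listed at 0 in both CD24low libraries. The EpCAM-negative library was therefore above both CD24+CD49f+ libraries for Csn2, the reverse of Csn3, Csn1s1 and Lalba. From the estimated depth and the longest annotated transcript, these values stand for about 236 and 200 fragments in Sox10+EpCAM+ fMaSC, 137 in EpCAM-negative stroma, and 119 and 63.9 in CD24+CD49f+ fMaSC. The longest of the 11 annotated Csn2 transcripts has 3945 bases. Such counts are upper estimates, since a shorter transcript would give fewer fragments.

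The alpha-s2 casein genes were at the edge of detection. Csn1s2a (chr5:87774567-87788797, plus strand) had 0.334 and 0.122 FPKM in Sox10+EpCAM+ fMaSC, against 0.287 FPKM in EpCAM-negative stroma, and 0.178 and 0.0481 FPKM in CD24+CD49f+ fMaSC, against a listed 0 in both CD24low libraries. Csn1s2b (chr5:87808082-87824426, plus strand) was listed at 0 in 6 libraries and had 0.0465 FPKM, about 3.21 fragments, in CD24+CD49f+ fMaSC replicate 1. For Csn1s2a the EpCAM-negative library lay between the Sox10+EpCAM+ libraries, as it did for no other casein.

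Among the whey proteins, Lalba (chr15:98480400-98482683, minus strand) was on and Wap and Glycam1 were not. Lalba had 34.2 and 24.4 FPKM in Sox10+EpCAM+ fMaSC, against 0.255 FPKM in EpCAM-negative stroma. It had 8.003 and 3.32 FPKM in CD24+CD49f+ fMaSC, against 0.0597 FPKM and a listed 0 in CD24low stroma. Of the milk genes, Lalba was above Csn1s1 in a single Sox10+EpCAM+ library and below it in each CD24+CD49f+ library. Wap (chr11:6635482-6638637, minus strand) had 0.0454 and 0.0416 FPKM in Sox10+EpCAM+ fMaSC, about 1.09 and 1.10 fragments, and was listed at 0 in the other 5 libraries. Glycam1 (chr15:103562762-103565078, minus strand), a mucin-like whey glycoprotein, had 0.0735 and 0.202 FPKM in Sox10+EpCAM+ fMaSC and 0.0790 FPKM in EpCAM-negative stroma. It had 0.0589 FPKM and a listed 0 in CD24+CD49f+ fMaSC, and was listed at 0 in CD24low stroma.

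The milk fat globule genes went different ways. Btn1a1 (chr13:23456992-23465901, minus strand), whose butyrophilin is needed for the release of fat droplets, had 0.749 and 1.37 FPKM in Sox10+EpCAM+ fMaSC, against 0.0836 FPKM in EpCAM-negative stroma. It had 0.5004 and 0.306 FPKM in CD24+CD49f+ fMaSC, against a listed 0 and 0.0123 FPKM in CD24low stroma. Btn1a1 was low throughout. All 4 fMaSC libraries lay above all 3 stroma libraries, as they did for Csn3, Csn1s1 and Lalba. The share of all genes with such an order is not given here. Mfge8 (chr7:79133769-79149060, minus strand) codes for lactadherin, a bridge between phosphatidylserine on dying cells and integrins of the cells that engulf them, and is made by many cell types. It had 59.7 and 73.7 FPKM in Sox10+EpCAM+ fMaSC, against 53.4 FPKM in EpCAM-negative stroma. It had 46.4 and 48.4 FPKM in CD24+CD49f+ fMaSC, against 50.3 and 62.9 FPKM in CD24low stroma. Fractions overlapped for Mfge8, which stood within the top 7.49% to 11.1% of genes in every library.

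Differences were tested for the 5 members with 1 FPKM or more in at least 2 libraries, namely Csn3, Csn2, Csn1s1, Lalba and Mfge8. Btn1a1, with a single library over 1 FPKM, fell just outside that filter, and Csn2 passed through 3 libraries between 1.40 and 2.25 FPKM. Because a gene could pass by being high in a fraction, counts over the tested members describe them and are no support for a general rule. Folds are on the log2(FPKM + 1) scale, which understates changes of low genes, and p-values are from limma, adjusted by Benjamini-Hochberg over 14418 genes with a threshold of 0.05.

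Sox10+EpCAM+ fMaSC were set against EpCAM-negative stroma, and 3 of the 5 tested members were higher in the fMaSC, beside 12.5% of all tested genes called higher, 13.6% lower and 26.1% in either direction. Csn3 was higher by 7.08 (log2, SE 0.66, adjusted p = 0.0011, limma). Csn1s1 was higher by 4.05 (SE 0.30, adjusted p = 0.000552, limma) and Lalba by 4.57 (SE 0.45, adjusted p = 0.00128, limma). These calls held in each of the 6 fits that left out a library. Csn2 differed by 0.31 (adjusted p = 0.287, limma) and Mfge8 by 0.31 (adjusted p = 0.415, limma), and neither passed the test. The stroma is a single library whose spread is taken from the other groups. Over all genes, 3762 calls became 1674 or 1766 without Sox10+EpCAM+ fMaSC replicate 1 or 2, and 5758 or 5745 without CD24+CD49f+ fMaSC replicate 1 or 2.

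CD24+CD49f+ fMaSC were set against CD24low stroma, and 4 of the 5 tested members were higher in the fMaSC, beside 7.78% of all tested genes called higher, 2.94% lower and 10.7% in either direction. Csn3 was higher by 6.27 (log2, SE 0.54, adjusted p = 0.00178, limma), Csn1s1 by 3.32 (SE 0.25, adjusted p = 0.00118, limma) and Lalba by 2.60 (SE 0.37, adjusted p = 0.00933, limma). With a pseudocount of 0.1 FPKM the differences of Csn1s1 and Lalba were 6.33 and 5.38. Csn2 passed the test (adjusted p = 0.0317, limma) against a stroma listed at 0, for which no fold is given. Mfge8 differed by -0.24 (adjusted p = 0.541, limma).

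The calls of Csn3 and Csn1s1 against CD24low stroma held in each of the 7 fits that left out a library. That of Lalba ended without CD24low stroma replicate 1 or 2 (adjusted p = 0.0689 and 0.0827, limma). That of Csn2 ended without any of Sox10+EpCAM+ fMaSC replicate 1 or 2, CD24+CD49f+ fMaSC replicate 1 or CD24low stroma replicate 1 or 2 (adjusted p from 0.0685 to 0.158, limma). Over all genes, 1545 calls became 767 or 796 without Sox10+EpCAM+ fMaSC replicate 1 or 2, 589 or 426 without CD24low stroma replicate 1 or 2, and 2353 without CD24+CD49f+ fMaSC replicate 2. Csn3 and Csn1s1 are thus the members whose calls against stroma held in both sorts in every fit that left out a library. The Sox10/EpCAM comparison cannot be fitted without its only stroma library, so its dependence on that library was not tested.

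All 4 fMaSC libraries were also set against all 3 stroma libraries with the sort as a term. Csn3 was higher by 6.59 (adjusted p = 0.000198, limma), Csn1s1 by 3.62 (adjusted p = 0.000198, limma) and Lalba by 3.39 (adjusted p = 0.00349, limma). Csn2 was higher by 0.62 (adjusted p = 0.0388, limma), a call kept in 2 of 7 fits that left out a library, those without EpCAM-negative stroma replicate 1 and without CD24+CD49f+ fMaSC replicate 2. In the others its adjusted p reached 0.116, and the call also ended without the filter and under TPM, median-ratio and quantile scaling. The pooled comparison called 15.6% of all tested genes higher, 9.5% lower and 25.1% in either direction, and Mfge8 was at -0.02 (adjusted p = 0.939, limma). The 3621 calls became 1687 or 1612 without Sox10+EpCAM+ fMaSC replicate 1 or 2, 1563 without EpCAM-negative stroma replicate 1, 2180 without CD24low stroma replicate 1 and 6374 without CD24+CD49f+ fMaSC replicate 2.

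Stroma held small amounts of several milk RNAs, which are read here beside 8 epithelium markers (Epcam, Krt8, Krt18, Krt14, Krt5, Cdh1, Cldn6 and Cldn7). In EpCAM-negative stroma these markers stood at 0.528% to 1.22% of their level in Sox10+EpCAM+ fMaSC, and in CD24low stroma at 0.284% to 1.34% of their level in CD24+CD49f+ fMaSC. Csn3 stood at 0.392% in EpCAM-negative stroma and 0.420% in CD24low stroma, and Lalba at 0.871% and 0.528%. Csn3 in EpCAM-negative stroma was just below the range of the markers, and the other 3 of these values were within it. Csn1s1 stood at 2.55% in EpCAM-negative stroma, above that range, and at 0.170% in CD24low stroma, below it. Csn2 stood at 70.1% and Csn1s2a at 126% in EpCAM-negative stroma, far above the markers, while both were listed at 0 in CD24low stroma. Mfge8 stood at 80.1% and 119%. The part that epithelial RNA in the stroma libraries has in these levels was not tested.

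**Figure D2:**
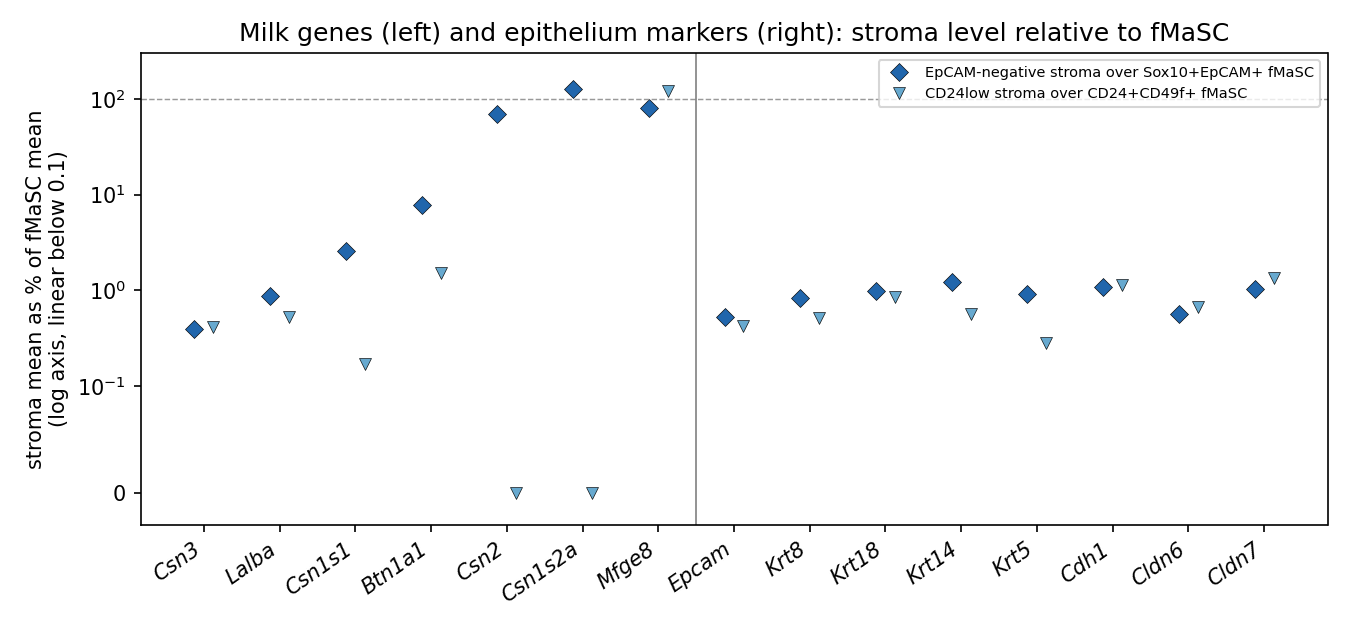
Mean stroma FPKM as a percent of the mean fMaSC FPKM of the same sort, on a log axis that is linear below 0.1, for 7 milk genes and, right of the line, 8 epithelium markers. Csn3 lies at 0.392% and 0.420%, Lalba at 0.871% and 0.528% and the markers between 0.284% and 1.34%, whereas Csn2 and Csn1s2a in EpCAM-negative stroma are at 70.1% and 126% and Mfge8 is near 100% in both sorts.

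The fMaSC fractions were compared with each other, the series having examined both sorting strategies. Sox10+EpCAM+ fMaSC were higher than CD24+CD49f+ fMaSC for 3 of the 5 tested members, beside 1.95% of all tested genes called higher, 8.04% lower and 9.99% in either direction. Lalba was higher by 2.26 (log2, SE 0.37, adjusted p = 0.0168, limma), Csn1s1 by 1.46 (SE 0.25, adjusted p = 0.02, limma) and Csn2 by 0.76 (SE 0.17, adjusted p = 0.044, limma). Csn3 was at 1.204 (adjusted p = 0.253, limma) and Mfge8 at 0.48 (adjusted p = 0.26, limma). The 3 calls were fragile. All ended without Sox10+EpCAM+ fMaSC replicate 1 or 2 and without CD24low stroma replicate 1 or 2, where the lowest adjusted p was 0.0507 (Lalba, limma), and that of Csn2 also without CD24+CD49f+ fMaSC replicate 2 (adjusted p = 0.103, limma). Without CD24+CD49f+ fMaSC replicate 1, Csn3 was called at 2.09 (adjusted p = 0.00222, limma). Over all genes, 1440 calls became 269 or 330 without Sox10+EpCAM+ fMaSC replicate 1 or 2, 841 or 850 without CD24low stroma replicate 1 or 2, and 2509 without CD24+CD49f+ fMaSC replicate 1.

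Markers of other cells moved with this comparison. The summed FPKM of 8 fibroblast markers was 47.0 and 76.6 in Sox10+EpCAM+ fMaSC and 2222 and 3440 in CD24+CD49f+ fMaSC. All 8 were called lower in Sox10+EpCAM+ fMaSC, beside 8.04% of all genes. The sum of 6 adipocyte markers was 18.3 and 13.2 FPKM in Sox10+EpCAM+ fMaSC and 558 and 231 FPKM in CD24+CD49f+ fMaSC. That of 5 erythroid markers was 151 and 85.3 FPKM in Sox10+EpCAM+ fMaSC and 6870 and 730 FPKM in CD24+CD49f+ fMaSC. None of these fibroblast, adipocyte or erythroid markers was listed at 0 in any fMaSC library. The geometric mean of the 8 epithelium markers was 82.7 and 101 FPKM in Sox10+EpCAM+ fMaSC and 58.6 and 42.4 FPKM in CD24+CD49f+ fMaSC. Among the erythroid markers 1 of 5 was called lower in Sox10+EpCAM+ fMaSC, beside 8.04% of all genes. The sum of 8 leukocyte and macrophage markers was 3.87 and 4.86 FPKM in Sox10+EpCAM+ fMaSC. It was 7.43 and 4.37 FPKM in CD24+CD49f+ fMaSC, so that the fractions overlapped. The CD24+CD49f+ libraries thus had higher sums of fibroblast, adipocyte and erythroid markers and a lower mean of epithelium markers.

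Milk RNA levels were also read relative to the epithelium markers of the same library. Csn3 stood at 376% and 260% of that geometric mean in Sox10+EpCAM+ fMaSC and at 391% and 157% in CD24+CD49f+ fMaSC, so that the fractions overlapped. Csn1s1 stood at 33.7% and 26.0% in Sox10+EpCAM+ fMaSC and at 20.3% and 16.6% in CD24+CD49f+ fMaSC. Lalba stood at 41.3% and 24.1% in Sox10+EpCAM+ fMaSC and at 13.7% and 7.82% in CD24+CD49f+ fMaSC. With so few libraries per fraction, the order of these values carries little weight, and the share of all genes with such an order is not given here. In a fit of the 4 fMaSC libraries scaled to this mean, an alternative chosen after seeing the data, Lalba was higher in Sox10+EpCAM+ fMaSC by 1.48 (adjusted p = 0.00592, limma). Csn1s1 was at 0.65 (adjusted p = 0.219, limma), Csn3 at 0.33 (adjusted p = 0.56, limma) and Csn2 at 0.29 (adjusted p = 0.414, limma). The median over all genes was -0.74 in that fit, against 0.01 in the same 4 libraries without the scaling.

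**Figure D3:**
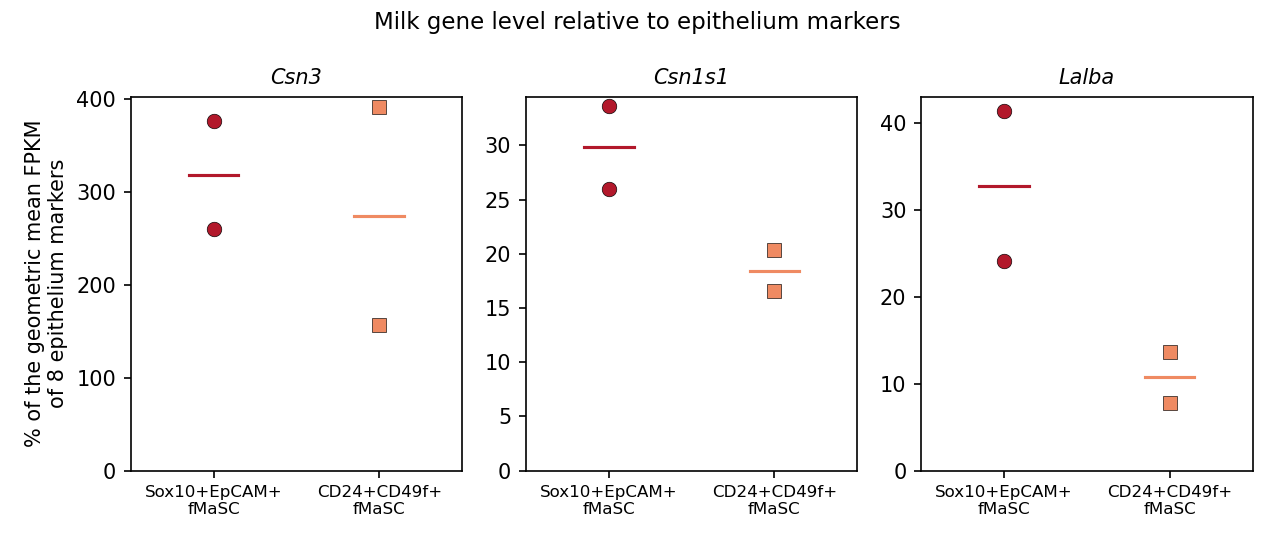
Csn3, Csn1s1 and Lalba in each fMaSC library as a percent of the geometric mean FPKM of 8 epithelium markers, with points for libraries and lines for means. The fractions overlap for Csn3, whereas for Csn1s1 (33.7% and 26.0%) and Lalba (41.3% and 24.1%) the Sox10+EpCAM+ libraries lie above the CD24+CD49f+ libraries (20.3% and 16.6%, and 13.7% and 7.82%).

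The difference between the strategies in the fMaSC-stroma fold was tested as well, and none of the 5 members passed, beside 1.51% of all tested genes (0.0763% higher and 1.44% lower). Lalba was at 1.98, larger in the Sox10/EpCAM sort (unadjusted p = 0.0141, adjusted p = 0.202, limma, 14418 genes). Csn3 was at 0.81 and Csn1s1 at 0.73 (adjusted p = 0.719 and 0.484, limma). These sizes rest on the pseudocount: at 0.1 FPKM Lalba was at 0.97 (adjusted p = 0.648, limma) and Csn1s1 at -1.23 (adjusted p = 0.338, limma). Csn2, listed at 0 in CD24low stroma, then had the lowest adjusted p of the 5 (0.0838, limma), with the difference on the side of the CD24 sort. Without CD24+CD49f+ fMaSC replicate 1 the differences of Lalba (2.51, adjusted p = 0.0164, limma) and Csn3 (1.70, adjusted p = 0.0259, limma) passed. The number of called genes, 218, became 974 or 397 without CD24+CD49f+ fMaSC replicate 1 or 2, and 4 to 7 without either Sox10+EpCAM+ fMaSC or either CD24low stroma library. Both fMaSC-stroma comparisons share 1 estimate of the spread.

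The 5 casein genes lie in a cluster of 266 kb on chromosome 5, from Csn1s1 to Csn3. The highest caseins, Csn1s1 and Csn3, sit at its ends, with the lower Csn2, Csn1s2a and Csn1s2b between them. The cluster holds 10 gene entries, and the 5 that are not caseins (Prr27, Odam, Gm7337, Gm25066 and Gm24314) reached at most 0.709 FPKM. That highest value was of Odam, a relative of the caseins known from tooth and junctional epithelium, which had 0.709 and 0.693 FPKM in Sox10+EpCAM+ fMaSC, against 0.0511 FPKM in EpCAM-negative stroma. It had 0.532 and 0.154 FPKM in CD24+CD49f+ fMaSC and was listed at 0 in CD24low stroma. High levels were therefore not a property of the whole cluster.

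Beyond the cluster, Smr3a starts 70 kb past the end of Csn3 and was picked out after its values were seen. It codes for a salivary prohormone-like protein. It had 37.2 and 23.5 FPKM in Sox10+EpCAM+ fMaSC and was listed at 0 in EpCAM-negative stroma. It had 21.6 and 9.22 FPKM in CD24+CD49f+ fMaSC, against 0.0684 and 0.245 FPKM in CD24low stroma (3.72, adjusted p = 0.0042, limma). Its level in each fMaSC library was thus of the order of Csn1s1 rather than Csn3.

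**Figure D4:**
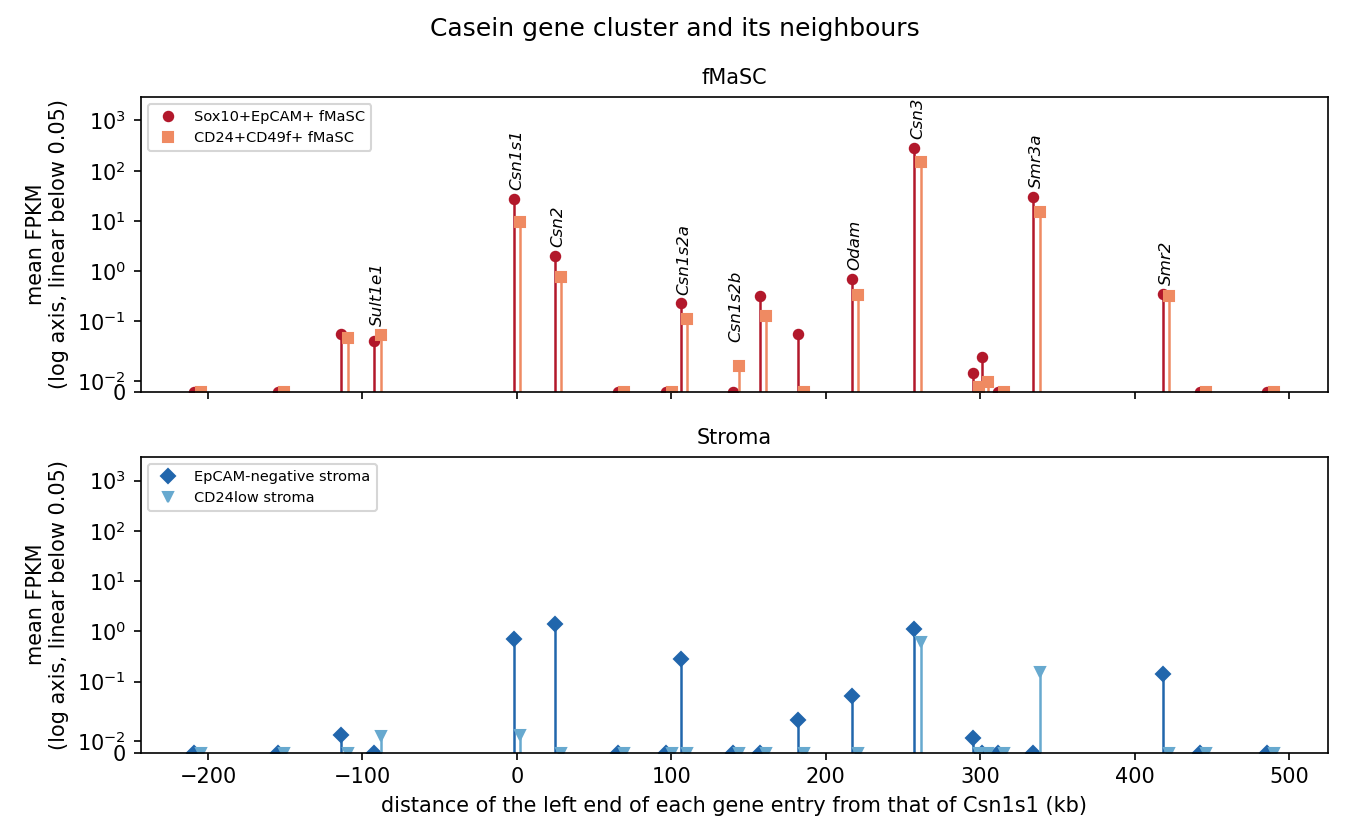
Mean FPKM per group of the gene entries in and around the casein cluster, against the distance in kb from the left end of Csn1s1, with fMaSC above and stroma below, on log axes that are linear below 0.05. In fMaSC the tall stems are Csn1s1 and Csn3 at the ends of the cluster and Smr3a 70 kb beyond Csn3, and in stroma no entry passes 1.40 FPKM.

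Genes with the most similar profiles over the 7 libraries were found by the root-mean-square difference of centred log2 values, among 9175 genes reaching 5 FPKM. These genes share libraries and depth, so the measure is a description. For Csn3 they were Epcam (0.34), Krt8 (0.46), Krt18 (0.51), Cytl1 (0.54), Igfbp2 (0.61) and Col9a3 (0.67). Epcam codes for the adhesion molecule used in a sort, and Krt8 and Krt18 for keratins of simple and luminal epithelium. Csn1s1 was nearest to Ocln (0.24), which codes for a tight junction protein, followed by Mal2, Rab25, Epgn, Ovol1 and Arhgdib (up to 0.29). Lalba was nearest to Csn1s1 itself (0.37), then Epgn, Pglyrp1, Ceacam10, Catsperz and Arhgdib (up to 0.47). Csn2 was nearest to Baiap2l2 (0.26), then Luc7l3, Ercc1, Pnisr, Ctu2 and Upf3b (up to 0.30). In CD24low stroma Csn2 was listed at 0 while Baiap2l2 had 1.19 and 1.39 FPKM, so this likeness, on the log2(FPKM + 1) scale that flattens low genes, does not extend to presence in stroma. Mfge8 was nearest to Clpb (0.10), then Rap2c, Parl, Hsp90b1, Pus10 and Cd164 (up to 0.13). The genes nearest to Csn3, Csn1s1 and Lalba were all far lower in stroma than in fMaSC, which follows from their choice by likeness to these profiles.

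Other secreted and globule proteins of milk were read from a list of 20 genes, of which 14 were tested. In Sox10+EpCAM+ fMaSC against EpCAM-negative stroma 9 were higher and 3 lower (median 1.47, all genes 0.09), and in CD24+CD49f+ fMaSC against CD24low stroma 7 were higher and 3 lower (median 1.06, all genes 0.13). Beside these stand 12.5% of all genes higher and 13.6% lower in the Sox10/EpCAM sort, and 7.78% and 2.94% in the CD24 sort. Lcn2, which codes for the iron-siderophore binder lipocalin, had 330 and 303 FPKM in Sox10+EpCAM+ fMaSC, against 5.96 FPKM in EpCAM-negative stroma. It had 175 and 117 FPKM in CD24+CD49f+ fMaSC, against 6.36 and 6.38 FPKM in CD24low stroma. Lcn2 was higher by 5.51 in the first pair (adjusted p = 0.000276, limma) and by 4.29 in the second (adjusted p = 0.00047, limma). Wfdc18, a relative of Wap, had 100.1 and 82.1 FPKM in Sox10+EpCAM+ fMaSC, against 0.653 FPKM in EpCAM-negative stroma. It had 101 and 21.3 FPKM in CD24+CD49f+ fMaSC, against 0.714 and 0.575 FPKM in CD24low stroma. Wfdc18 was higher by 5.79 (adjusted p = 0.00405, limma) and 4.86 (adjusted p = 0.00806, limma), the second call ending without CD24low stroma replicate 1 or 2. Lcn2 and Wfdc18 were thus far above Wap in every fMaSC library.

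Muc15, a mucin of the globule membrane, was higher by 3.67 in Sox10+EpCAM+ fMaSC (adjusted p = 0.000585, limma) and 2.78 in CD24+CD49f+ fMaSC (adjusted p = 0.0016, limma). Wfdc2 was higher by 3.40 (adjusted p = 0.00216, limma) and 2.71 (adjusted p = 0.00508, limma), the second call ending without CD24low stroma replicate 2. The members that were lower in fMaSC, named after their values were seen, were Trf (transferrin), Cd36 (a fatty acid transporter) and Plin2 (a lipid droplet coat protein) in both sorts. Their folds were -3.12, -3.10 and -2.17 in Sox10+EpCAM+ fMaSC and -2.12, -1.49 and -1.30 in CD24+CD49f+ fMaSC. In the CD24 sort the call of Trf ended without CD24low stroma replicate 1 or 2, that of Cd36 without CD24low stroma replicate 2, and that of Plin2 without any Sox10+EpCAM+ or CD24low library. These 3 are also expressed by adipocytes or stromal cells. Adipocyte markers summed to 18.3 and 13.2 FPKM in Sox10+EpCAM+ fMaSC against 768 FPKM in EpCAM-negative stroma, and to 558 and 231 FPKM in CD24+CD49f+ fMaSC against 999 and 1275 FPKM in CD24low stroma, and their part in the result was not tested. Muc1, Cidea and Spp1 did not pass in the CD24 sort, and Pigr, Ltf, Lpo, Fabp3, Cel and Mucl1 were below the filter. Leaving out a library brought the higher calls down to 5 in the Sox10/EpCAM sort (without Sox10+EpCAM+ fMaSC replicate 1), and to 3 in the CD24 sort (without CD24low stroma replicate 1 or 2).

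Within the whey acidic protein family, Wap was nearly undetected, and Wfdc18, Wfdc2 and Slpi were among its 5 tested members of 11 listed. In the Sox10/EpCAM sort these 3 were higher and Wfdc1 lower, beside 12.5% and 13.6% of all genes. In the CD24 sort Wfdc18 and Wfdc2 were higher and none lower, beside 7.78% and 2.94% of all genes. Slpi, a protease inhibitor of secretions, had 10.3 and 13.6 FPKM in Sox10+EpCAM+ fMaSC, against 1.27 FPKM in EpCAM-negative stroma (2.50, adjusted p = 0.0329, limma). In the CD24 sort its difference was 2.00 (adjusted p = 0.0634, limma), and without a Sox10+EpCAM+ or a CD24low library the family's higher calls in the Sox10/EpCAM sort fell to 2. Without CD24low stroma replicate 1 or 2, those in the CD24 sort fell to 1 or 0. Among 10 butyrophilin genes none passed the filter, and Btn1a1 held the highest value of the family. Of the integrins that bind lactadherin, Itgb3 was lower in Sox10+EpCAM+ fMaSC than in EpCAM-negative stroma (-1.75, adjusted p = 0.00646, limma) and Itgb5 was at -0.86 (adjusted p = 0.039, limma). The call of Itgb5 ended without any Sox10+EpCAM+ or CD24low library. None of the 5 genes of this group passed in the CD24 sort, beside 10.7% of all genes in either direction.

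Genes of the lactose pathway, in which alpha-lactalbumin works, were read from a list of 12, all tested. None was higher and 3 were lower in Sox10+EpCAM+ fMaSC against EpCAM-negative stroma (median -0.14), beside 12.5% of all genes higher and 13.6% lower, and a count of 0 higher genes among 12 is near that share. In CD24+CD49f+ fMaSC against CD24low stroma none was higher and 1 lower, beside 7.78% and 2.94% of all genes, with a median of 0.02 that turned to -0.25 under TPM, -0.10 under median-ratio and -0.11 under quantile scaling. B4galt1, the catalytic partner of alpha-lactalbumin, had 12.5 and 15.1 FPKM in Sox10+EpCAM+ fMaSC, against 45.0 FPKM in EpCAM-negative stroma (-1.64, adjusted p = 0.0275, limma). It had 18.9 and 36.6 FPKM in CD24+CD49f+ fMaSC, against 47.2 and 42.8 FPKM in CD24low stroma (-0.75, adjusted p = 0.213, limma). Slc35a2, the Golgi transporter of UDP-galactose, was at -1.12 in the Sox10/EpCAM sort (adjusted p = 0.0179, limma). Pgm1, a phosphoglucomutase, was at -1.18 in that sort (adjusted p = 0.00926, limma) and -0.90 in the CD24 sort (adjusted p = 0.0244, limma). Without Sox10+EpCAM+ fMaSC replicate 1 or 2 none of the 12 was called in either sort, and without CD24low stroma replicate 1 or 2 none in the CD24 sort. The call of B4galt1 in the Sox10/EpCAM sort also ended without CD24low stroma replicate 1 or 2. Without CD24+CD49f+ fMaSC replicate 1 or 2, 4 of the 12 were called higher and 4 lower in the Sox10/EpCAM sort, and 1 higher in the CD24 sort. Over all fMaSC and stroma libraries 3 of the 12 were higher and 4 lower, beside 15.6% and 9.5% of all genes. The higher ones were Slc2a1, a glucose transporter (0.60, adjusted p = 0.0481, limma), Hk1, a hexokinase (0.76, adjusted p = 0.034, limma), and Galk1, a galactokinase (0.56, adjusted p = 0.044, limma), none of which was called in either sort alone.

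Of 16 genes of milk fat synthesis, 15 were tested. In the Sox10/EpCAM sort 1 was higher in fMaSC and 4 were lower (median -0.49), beside 12.5% of all genes higher and 13.6% lower. In the CD24 sort none was higher and 2 were lower (median -0.39), beside 7.78% and 2.94% of all genes. Lpl, which codes for lipoprotein lipase, had 1.17 and 1.02 FPKM in Sox10+EpCAM+ fMaSC, against 204 FPKM in EpCAM-negative stroma (-6.61, adjusted p = 0.00026, limma). It had 53.5 and 65.8 FPKM in CD24+CD49f+ fMaSC, against 186 and 173 FPKM in CD24low stroma (-1.58, adjusted p = 0.00532, limma). Lpl is also in the adipocyte list given above. Gpam, Srebf1 and Dgat2 were the other genes called lower in the Sox10/EpCAM sort (-1.16, -0.99 and -0.76), and Vldlr, a lipoprotein receptor, was higher (1.00, adjusted p = 0.0216, limma). These calls of Gpam, Srebf1, Dgat2 and Vldlr ended without Sox10+EpCAM+ fMaSC replicate 1 or 2. Those of Srebf1 and Dgat2 also ended without CD24low stroma replicate 1 or 2. In the CD24 sort that of Dgat2 (-0.998, adjusted p = 0.0138, limma) ended without any Sox10+EpCAM+ or CD24low library. Under TPM scaling only Lpl in the Sox10/EpCAM sort stayed called among the 15. Fasn, Acaca and Acly, of fatty acid synthesis, were not called in either sort.

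Of 13 genes for milk calcium, zinc, water and casein phosphorylation, 9 were tested, and 4 were higher in fMaSC in each sort. Of all genes, 12.5% were higher and 13.6% lower in the Sox10/EpCAM sort, and 7.78% and 2.94% in the CD24 sort. The 4 higher genes were Aqp5 and Aqp3, which code for water channels, Slc12a2, a sodium, potassium and chloride cotransporter, and Slc30a2, a zinc transporter of secretory vesicles. Aqp5 had 42.6 and 44.7 FPKM in Sox10+EpCAM+ fMaSC, against 0.415 FPKM in EpCAM-negative stroma (4.98, adjusted p = 0.000291, limma). It had 27.4 and 18.1 FPKM in CD24+CD49f+ fMaSC, against 0.289 and 0.203 FPKM in CD24low stroma (4.22, adjusted p = 0.000412, limma). Slc30a2 was higher by 2.12 (adjusted p = 0.00106, limma) and by 1.34 (adjusted p = 0.00526, limma), the second call ending without CD24low stroma replicate 2. Fam20c, the Golgi kinase that phosphorylates caseins, was not called (-0.23, adjusted p = 0.402 in the Sox10/EpCAM sort and 0.05, adjusted p = 0.882 in the CD24 sort, limma), and Fam20a was lower in the Sox10/EpCAM sort (-1.08, adjusted p = 0.0191, limma), a call that ended without Sox10+EpCAM+ fMaSC replicate 1 or 2. The calls of Slc12a2 ended in both sorts under TPM scaling. The list's median was 0.28 in the Sox10/EpCAM sort, turning to -0.47 under TPM, and 0.37 in the CD24 sort. The calcium pump genes Atp2b2 and Atp2c2, the phosphate transporter Slc34a2 and the calcium sensor Casr were below the filter.

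The prolactin pathway is described from its receptor on. Prlr, the prolactin receptor, had 1.49 and 1.22 FPKM in Sox10+EpCAM+ fMaSC, against 3.61 FPKM in EpCAM-negative stroma (-0.97, adjusted p = 0.0783, limma). It had 1.4999 and 3.11 FPKM in CD24+CD49f+ fMaSC, against 4.07 and 5.10 FPKM in CD24low stroma (-0.79, adjusted p = 0.131, limma). Every stroma library was above every fMaSC library for Prlr, though neither sort's difference passed the test. For this order, too, the share over all genes is not given. Over all fMaSC and stroma libraries the difference was -0.87 (adjusted p = 0.0251, limma). Stat5a, the main STAT of the lactating gland, had 2.37 and 2.95 FPKM in Sox10+EpCAM+ fMaSC, against 13.0 FPKM in EpCAM-negative stroma (-1.94, adjusted p = 0.0102, limma). It had 5.13 and 8.33 FPKM in CD24+CD49f+ fMaSC, against 10.5 and 6.91 FPKM in CD24low stroma, where the fractions overlapped (-0.34, adjusted p = 0.523, limma). Stat5a was lowest in the Sox10+EpCAM+ libraries, but its difference between the fMaSC fractions was not called (-1.05, adjusted p = 0.0758, limma). How its level relates to those of the milk genes was not tested.

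Over the 12 genes of that list, 11 were tested. In the Sox10/EpCAM sort 1 was higher and 5 were lower in fMaSC (median -0.97), beside 12.5% of all genes higher and 13.6% lower, so that the count of higher genes was near the share over all genes. A single gene was lower and none higher in the CD24 sort (median -0.34), beside 2.94% and 7.78% of all genes. Besides Stat5a, the lower genes in the Sox10/EpCAM sort were Cish (-1.69, adjusted p = 0.0337, limma) and Socs3 (-1.58, adjusted p = 0.0395, limma), feedback inhibitors of cytokine signalling, Stat5b (-1.17, adjusted p = 0.0299, limma) and Ghr (-1.07, adjusted p = 0.012, limma). Socs2, also a feedback inhibitor and named after its values were seen, was the higher one (0.96, adjusted p = 0.0367, limma), a call that ended under TPM, median-ratio and quantile scaling. Without Sox10+EpCAM+ fMaSC replicate 1 none of these 6 was called, and without replicate 2 only Stat5a was. Without CD24low stroma replicate 1 or 2, 3 were called lower, and Stat5b ended under TPM and Socs3 under quantile scaling. Ghr, the growth hormone receptor, was the gene lower in the CD24 sort (-0.90, adjusted p = 0.0226, limma), a call that ended without any Sox10+EpCAM+ or CD24low library. Jak2 had 10.04 and 9.92 FPKM in Sox10+EpCAM+ fMaSC, against 10.5 FPKM in EpCAM-negative stroma. The summed FPKM of 8 fibroblast markers was 6453 in EpCAM-negative stroma, and the part of stromal cells in these differences was not tested.

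Of the factors known to act on milk genes or alveolar cells, some were higher in fMaSC, some were not called and a few were lower. Of 17 genes, all tested, 9 were higher and 2 lower in Sox10+EpCAM+ fMaSC against EpCAM-negative stroma (median 1.02), beside 12.5% and 13.6% of all genes. In CD24+CD49f+ fMaSC against CD24low stroma 8 were higher and none lower (median 0.55), beside 7.78% and 2.94% of all genes. Elf5, an alveolar regulator that works with Stat5, had 16.1 and 17.54 FPKM in Sox10+EpCAM+ fMaSC, against 0.199 FPKM in EpCAM-negative stroma (3.89, adjusted p = 0.000711, limma). It had 10.8 and 6.11 FPKM in CD24+CD49f+ fMaSC, against 0.263 and 0.272 FPKM in CD24low stroma (2.85, adjusted p = 0.00216, limma). Tfap2c (5.29 and 4.54), Gata3 (4.32 and 3.71) and Ehf (3.78 and 2.90), regulators of mammary epithelium, were likewise higher in the Sox10/EpCAM and the CD24 sort. All 4 were called in every fit that left out a library. Without CD24low stroma replicate 1 or 2 the higher calls in the CD24 sort fell to 4, and without Sox10+EpCAM+ fMaSC replicate 1 or 2 to 5.

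Cebpb, Nfib and Nr3c1, the last being the glucocorticoid receptor gene, were not called in either sort. Nr3c1 had 10.8 and 11.8 FPKM in Sox10+EpCAM+ fMaSC, against 12.1 FPKM in EpCAM-negative stroma, and 8.95 and 16.2 FPKM in CD24+CD49f+ fMaSC, against 15.1 and 12.0 FPKM in CD24low stroma. Esr1, the estrogen receptor gene, and Nfia were the genes lower in the Sox10/EpCAM sort and were named after their values were seen. Esr1 had 0.0917 and 0.0822 FPKM in Sox10+EpCAM+ fMaSC, against 4.13 FPKM in EpCAM-negative stroma (-2.24, adjusted p = 0.00717, limma). Nfia was at -1.68 (adjusted p = 0.0242, limma), a call that ended without any Sox10+EpCAM+ or CD24low library. Pgr, the progesterone receptor gene, was also named after its values were seen and had 1.01 and 1.36 FPKM in Sox10+EpCAM+ fMaSC, against 0.0771 FPKM in EpCAM-negative stroma (1.02, adjusted p = 0.0115, limma), a call that ended under TPM scaling.

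**Figure D5:**
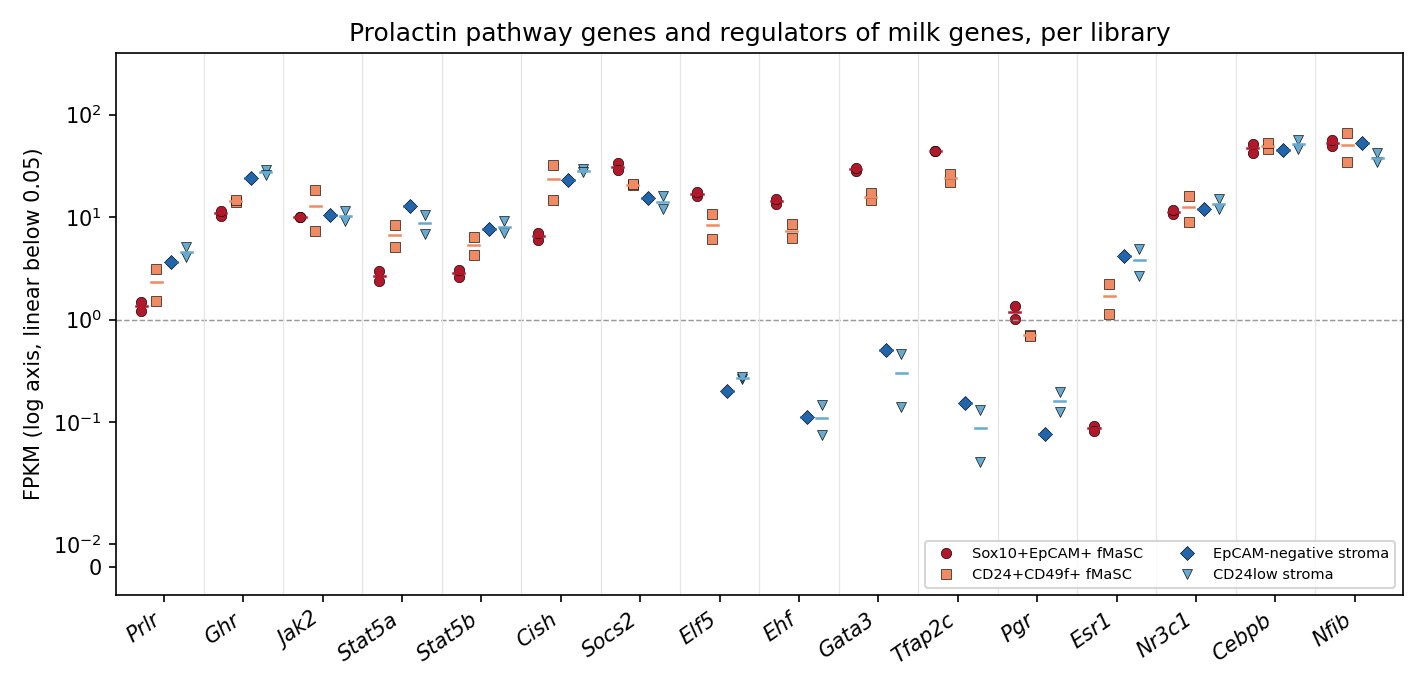
FPKM per library of prolactin pathway genes and of factors known to act on milk genes, on a log axis that is linear below 0.05, with short lines for group means and a dashed line at 1 FPKM. Elf5, Ehf, Gata3 and Tfap2c are high in fMaSC and below 1 FPKM in stroma, Prlr is below 4 FPKM in every fMaSC library, and Nr3c1, Cebpb and Nfib overlap between fractions.

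The caseins belong to the secretory calcium-binding phosphoprotein family, whose other members include tooth and bone matrix proteins. Of 12 such relatives 3 were tested, and Fdcsp has no entry by that name. Spp1, the osteopontin gene, had 7.66 and 4.59 FPKM in Sox10+EpCAM+ fMaSC, against 1.82 FPKM in EpCAM-negative stroma (1.30, adjusted p = 0.0241, limma). That call ended without Sox10+EpCAM+ fMaSC replicate 1 and without CD24low stroma replicate 1 or 2. Sparc and Sparcl1, matrix proteins from whose gene family the caseins are thought to descend, were lower in Sox10+EpCAM+ fMaSC (-4.04 and -2.70, adjusted p = 0.00232 and 0.00151, limma). In the Sox10/EpCAM sort 12.5% of all genes were higher and 13.6% lower. None of the 3 relatives was called in the CD24 sort, beside 10.7% of all genes in either direction. Amtn, Ambn, Enam, Dspp, Dmp1, Ibsp, Mepe and Odam stayed below 1 FPKM in all libraries.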

How the data were processed

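Per the labels' protocols, RNA of sorted CD1 fetal mammary cells was made into TruSeq libraries and read on a HiSeq2000 as pairs of 100-base reads. Per the submitters' processing notes, STAR and Cufflinks were used with GRCm38/mm10; versions and annotation are not given in the sources used here. Headers and range of the deposited table show FPKM, 1 value per gene and library. For Sox10+EpCAM+ fMaSC replicate 1 the column name names lineage-negative sorting and the title does not.

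Symbols were matched ignoring case, and loci with their 0-based starts were made 1-based. Of 38579 entries, 36664 (95.0%) took names from GENCODE vM21, and 8 added sequences were left out. Depth, estimated from low FPKM values, was 22300000 to 33500000 fragments per library. In these values 61.7% to 68.8% lay within 0.15 of whole fragments, so depth is approximate. A fragment on 2 kb is worth 0.0149 to 0.0224 FPKM. Between 12790 and 13639 genes reached 1 FPKM, summed FPKM ran from 378952 to 752737 and mitochondrial genes took 6.23% to 19.0% of it.

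Limma 3.58.1 (R 4.3.3) fitted 4 group means to log2(FPKM + 1) of the 14418 genes at 1 FPKM or above in 2 or more libraries; eBayes used a mean-variance trend, on 3 residual degrees of freedom. The pooled comparison fitted cell type plus sort. P-values are two-sided and adjusted by Benjamini-Hochberg across all genes tested, and the fit was tested on simulated data. Members and gene lists were chosen with earlier results of these data known. Named list genes are up to 4 called with the largest folds and up to 3 not called per list; exceptions are said. RefSeq gave the promoters. Alternatives were pseudocount 0.1, no filter, TPM, median-ratio and quantile scaling, each library left out, the CD24 sort alone and other thresholds for on. Figures were drawn with matplotlib 3.10.9, and tables made with pandas 2.3.3 and numpy 2.4.6 under Python 3.11.15.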

Additional observations from a re-analysis of the deposited data

How the results depend on the processing

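Csn3 and Csn1s1 against stroma in either sort, and Lalba in the Sox10/EpCAM sort, stayed called under every alternative run. Without the filter, milk genes called fell to 2 in the CD24 sort (Lalba at adjusted p = 0.0598 and Csn2 at 0.065, limma) and to 0 between the fMaSC fractions. Wap was then called higher in the Sox10/EpCAM sort (0.061), from about 1.09 and 1.10 fragments in the Sox10+EpCAM+ libraries. Btn1a1 was then called in the pooled comparison (0.65, adjusted p = 0.0481, limma). Between the fMaSC fractions TPM scaling left 1 call, as did the fMaSC libraries alone with or without epithelium-marker scaling, both chosen after seeing the data. Csn2 in the CD24 sort also ended under TPM (adjusted p = 0.0675, limma) and quantile scaling (0.178). With a library left out, milk genes called ranged from 2 to 4 in the CD24 sort, 0 to 4 between the fMaSC fractions, 3 to 4 over all fMaSC and stroma, and 0 to 2 for the difference between strategies.

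Over all genes, calls under TPM scaling numbered 590 (459 higher, 131 lower) in the CD24 sort, 2353 (615 and 1738) in the Sox10/EpCAM sort, 554 (16 and 538) between the fMaSC fractions, 1781 (831 and 950) in the pooled comparison and 61 for the difference between strategies. TPM moved the median of all genes to -0.63 in the Sox10/EpCAM sort and -0.11 in the CD24 sort, against 0.09 and 0.13. The CD24 sort alone gave 839 calls. Between the fMaSC fractions there were 724 without the filter, 882 with those libraries alone and 3428 with epithelium-marker scaling. The difference between strategies gave 421 with pseudocount 0.1 and 104 with quantile scaling. With a library left out the counts ran from 426 to 2353 (CD24 sort), 1674 to 5758 (Sox10/EpCAM sort), 269 to 2509 (fMaSC fractions), 1563 to 6374 (pooled) and 4 to 974 (difference). Higher and lower calls were 1121 and 424 in the CD24 sort, but 993 and 653 with median-ratio and 855 and 772 with quantile scaling; 2252 and 1369 in the pooled comparison, but 1723 and 1942 with median-ratio and 1663 and 2056 with quantile scaling; 281 and 1159 between the fMaSC fractions, but 526 and 816 with quantile scaling and 112 and 1377 with pseudocount 0.1.

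Signs turned only for differences that were not called: in the Sox10/EpCAM sort Csn2 under TPM (-0.25) and Mfge8 under TPM (-0.51) and quantile scaling (-0.068), between fMaSC fractions Mfge8 under epithelium-marker scaling (-0.38), and in the difference between strategies Csn1s1 with pseudocount 0.1 (-1.23) and TPM (-0.19). With a library left out, pooled Mfge8 ranged from -0.24 to 0.11 and the Csn3 difference between strategies from -0.071 to 1.70. The cause of these shifts was not tested. On counts were 1 for EpCAM-negative stroma at 5 FPKM, and 2 for CD24low stroma at 0.5 FPKM or in TPM. At 0.5 FPKM, Csn2 was also on in CD24+CD49f+ fMaSC (0.897 and 0.643 FPKM) and Btn1a1 in Sox10+EpCAM+ fMaSC (0.749 and 1.37 FPKM). Csn1s1 was then on in EpCAM-negative stroma (0.691 FPKM). The same genes were on in these fractions in TPM. At 5 FPKM, Csn2 was no longer on in Sox10+EpCAM+ fMaSC, nor Lalba in CD24+CD49f+ fMaSC (8.003 and 3.32 FPKM). No paired analysis was possible because the labels give no replicate numbers that pair libraries. Zeros in the table could be a failed estimate, and values near 1 fragment cannot show whether a gene is silent.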
